A study of Mus musculus with 16 samples.

Results

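Expression of 10 genes that mark blood vessel endothelium was followed in prostate RNA of mice with 2 genotypes and 2 treatments. The members were set by name (Kdr, Flt1, Tek, Tie1, Eng, Pecam1, Cdh5, Cldn5, Vwf and Emcn). All 10 were among the 29535 genes of the deposited table, and all 10 were among the 16895 genes with enough signal to be tested. The mice, 12 months old, were of hybrid 129/SvImJ and C57Bl/6J strain, and the mutants were homozygous (-/-) for 1 gene whose normal counterpart was +/+ in wild type. The 4 groups were finasteride-treated mutants (5 libraries), mutants given vehicle (3), finasteride-treated wild type (5) and wild type given vehicle (3). Finasteride blocks the 5-alpha-reductases, the enzymes that turn testosterone into the stronger androgen dihydrotestosterone. Whether every library came from its own animal is not in the labels, and p-values here measure only the spread between these libraries. In whole prostate, fewer endothelial cells and less of a transcript per endothelial cell cannot be told apart.

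Endothelial cells line every vessel and hold the barrier between blood and tissue. Vascular endothelial growth factors act through the tyrosine kinase receptors Kdr and Flt1 to drive vessel growth, and angiopoietins act through Tek, with its partner Tie1, to set how stable and how leaky vessels are. Cell contacts are held by Cdh5, Cldn5 and Pecam1. In the prostate of rodents, vessels regress early after castration and return with androgen.

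Values are the authors' normalized expression on a log2 scale, 1 value per gene and library, and read depth is unknown. Whether they were scaled by transcript length is not given, so levels were compared between libraries and never between genes. A difference of 1 is a 2-fold change, and fold changes are given as log2 values ± SE. A call is an adjusted p under 0.05 by limma over all 16895 genes tested. With values taken out of log2 and added up, the log2 of a library's sum was 24.07 to 24.16 for finasteride-treated mutants and 24.31 to 24.55 elsewhere. The 10 most abundant genes took 9.58% to 31.2% of these sums.

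Before any result, 5 of the 16 libraries stood apart. These were libraries 3 and 4 of mutant finasteride, 3 of mutant vehicle, 4 of wild-type finasteride and 3 of wild-type vehicle. Each lay close to a weighted mixture of another pair of libraries of its own group. Residuals from the mixture had an SD of 0.0665 to 0.0941 log2 units. The SD was taken over genes with log2 values of at least 8, with the scale left free. Calls of the members and counts of the gene lists are therefore also given over the other 11 libraries. For other named genes the value over 11 libraries is given where it ended a call, and the remaining calls of such genes held there. Transcripts of the seminal vesicle, a gland that lies against the prostate, also differed between libraries. The mean log2 value of 6 seminal vesicle genes was 13.5, 10.9, 13.6, 13.4 and 13.4 in mutant finasteride libraries 1 to 5, and 11.5, 12.0 and 11.7 in mutant vehicle. It was 9.02, 7.90, 6.46, 6.37 and 6.77 in wild-type finasteride and 18.7, 6.85 and 17.4 in wild-type vehicle. Fits with this mean as a covariate are given where they changed a call.

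The defining endothelial markers were present in every library, the lowest value of any member being 5.94 for Cldn5 in a mutant vehicle library. The mean of the members other than Emcn was 8.40 to 8.90 in mutant finasteride libraries and 7.77 to 7.87 in mutant vehicle libraries. It was 7.64 to 8.09 in wild-type finasteride libraries and 8.08 to 8.11 in wild-type vehicle libraries. The mutant finasteride libraries thus lay above all the others.

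**Figure D1:**
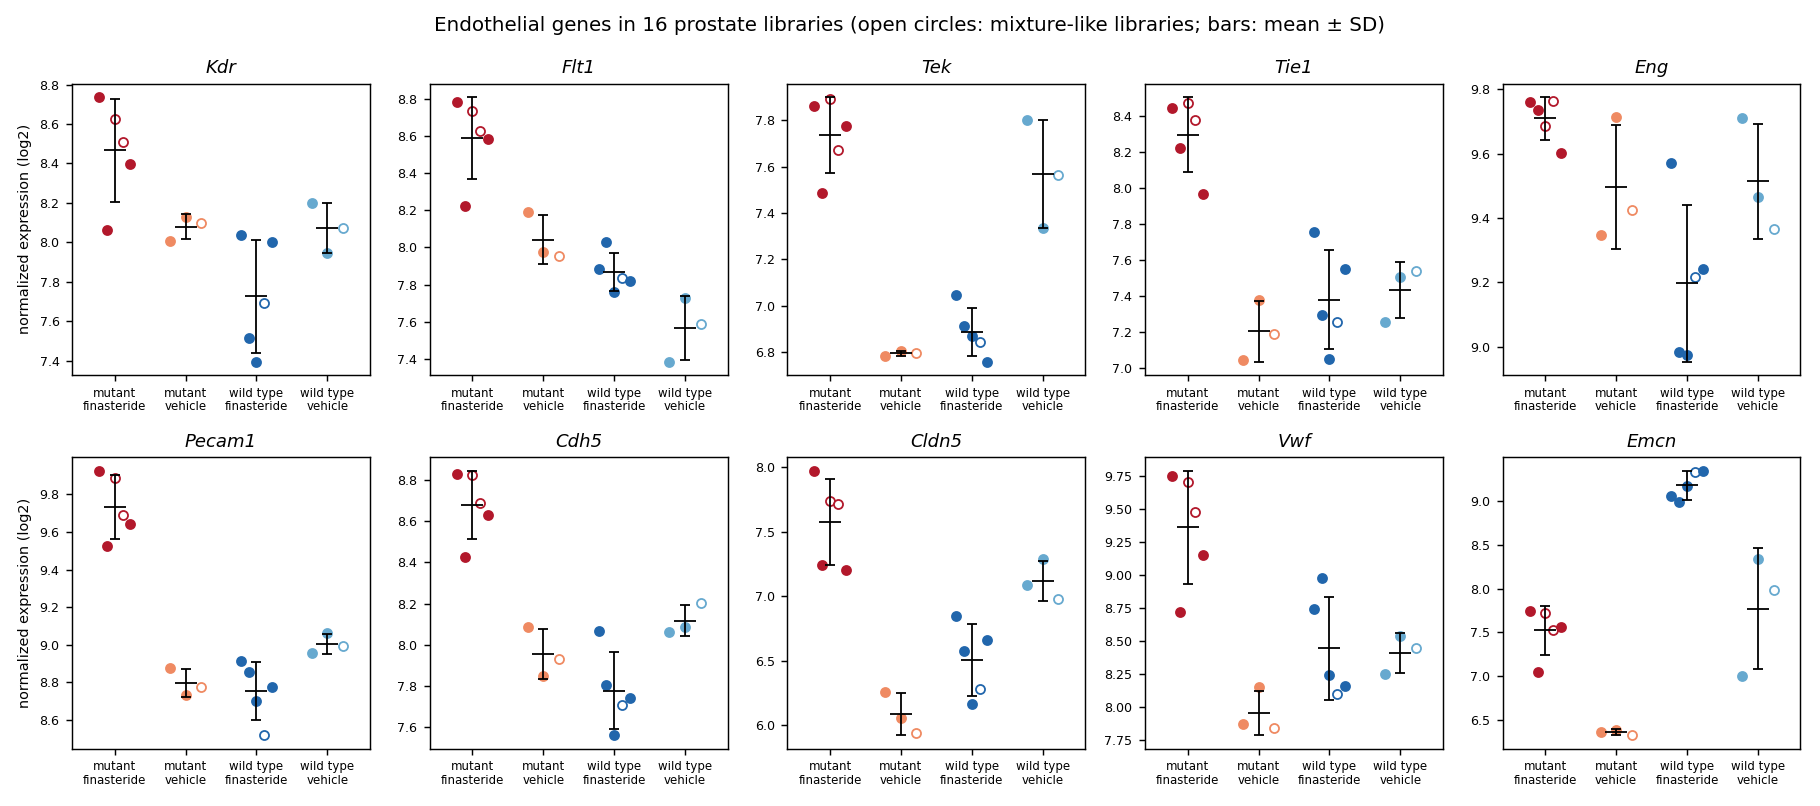
Normalized expression (log2, y axis, a separate scale for each gene) of the 10 endothelial genes in each of 16 prostate libraries, by group (x axis). Points are libraries, open circles the 5 mixture-like ones, and bars the mean ± SD. The mutant finasteride group has the highest mean for 9 genes, whereas Emcn is highest in wild type on finasteride.

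Promoters of the members were read to show the sequence that sits at genes with like and unlike patterns. RefSeq tables on GRCm38.p6 held 7 of the 10 members, and Pecam1, Cdh5 and Vwf are named only. Each window runs from 250 bases before to 50 bases after the gene's start, 5′ to 3′ on the gene's strand. Capitals mark the core letters of an ETS factor motif, GGAA, found on either strand (TTCC on the printed one). Tie1, Tek and Cldn5 were shown because they rose together in treated mutants, and Emcn because its group order differed from theirs. Tie1 is at chr4:118489800-118490099 (minus strand), Tek at chr4:94739039-94739338 (plus), Cldn5 at chr16:18776597-18776896 (plus) and Emcn at chr3:137340828-137341127 (plus).
Tie1: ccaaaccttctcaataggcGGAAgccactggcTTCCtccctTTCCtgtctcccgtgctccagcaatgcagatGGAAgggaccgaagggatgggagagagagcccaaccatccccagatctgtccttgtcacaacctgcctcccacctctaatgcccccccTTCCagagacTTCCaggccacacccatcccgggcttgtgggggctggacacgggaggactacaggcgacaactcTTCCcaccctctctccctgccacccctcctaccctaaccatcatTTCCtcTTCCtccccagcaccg
Tek: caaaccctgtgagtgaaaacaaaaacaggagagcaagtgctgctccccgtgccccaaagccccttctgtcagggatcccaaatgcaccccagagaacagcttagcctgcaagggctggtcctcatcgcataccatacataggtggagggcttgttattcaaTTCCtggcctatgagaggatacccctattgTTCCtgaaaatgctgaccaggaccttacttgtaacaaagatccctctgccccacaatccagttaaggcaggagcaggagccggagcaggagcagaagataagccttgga
Cldn5: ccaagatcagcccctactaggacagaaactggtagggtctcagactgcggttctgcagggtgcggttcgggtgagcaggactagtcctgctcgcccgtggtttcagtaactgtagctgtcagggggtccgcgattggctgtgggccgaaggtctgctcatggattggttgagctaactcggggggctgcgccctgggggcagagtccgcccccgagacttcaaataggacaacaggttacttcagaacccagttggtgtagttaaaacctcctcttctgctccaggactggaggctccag
Emcn: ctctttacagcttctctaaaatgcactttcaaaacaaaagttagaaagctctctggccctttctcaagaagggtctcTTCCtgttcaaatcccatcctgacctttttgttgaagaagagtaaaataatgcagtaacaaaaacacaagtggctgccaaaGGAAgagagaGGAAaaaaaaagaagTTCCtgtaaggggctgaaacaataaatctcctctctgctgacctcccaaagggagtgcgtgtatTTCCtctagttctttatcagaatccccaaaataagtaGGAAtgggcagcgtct
The letters GGAA occurred 9 times in Tie1, 6 times in Emcn, 5 times in Kdr, 4 times each in Eng and Flt1, 2 times in Tek and 0 times in Cldn5. They occurred in 6 of the 7 member promoters and in 95.9% of 27025 promoters of the same length, so their presence is no feature of the members. The longer form ACAGGAA, which overlaps GGAA, was in 2 of the 7 (Emcn and Tie1) and in 8.50% of all promoters. The letters GATAA, bound by zinc finger factors of blood and endothelium, were in 2 of the 7 (Emcn and Tek) and 25.8% of all promoters. The Klf core CACCC was in 6 of the 7, all but Emcn, and in 56.7% of all promoters. The core promoter letters TATAA were in 2 of the 7 (Eng and Flt1) and in 25.5% of all promoters. These are letter matches on both strands and not measured binding sites.

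The first comparison set mutants given finasteride against mutants on vehicle. The question was whether the drug changes the vessel genes of the mutant prostate. Of the 10 members, 8 rose and 0 fell, where 26.3% of all tested genes rose and 22.3% fell. The member median was 0.94, beside a median of -0.00216 over all genes tested. Cldn5, Vwf, Emcn and Tie1 each rose by more than 1 log2 unit, and Eng and Kdr did not pass.

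Kdr, the main signalling receptor for VEGF-A, was at 8.74, 8.06, 8.62, 8.51 and 8.40 in mutant finasteride libraries and at 8.01, 8.13 and 8.10 in mutant vehicle libraries. The second finasteride library lay among the vehicle ones, so the groups overlapped. The difference of 0.39 ± 0.16 did not pass (adjusted p = 0.0558). It did pass in each of 3 fits that left out 1 library, namely mutant finasteride library 2, wild-type finasteride library 1 or wild-type finasteride library 3 (lowest adjusted p = 0.0101), and also with only the 2 groups in the fit (adjusted p = 0.0459).

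Flt1 binds VEGF-A, VEGF-B and placental growth factor and can act as a trap for them. It was at 8.78, 8.22, 8.73, 8.62 and 8.58 in mutant finasteride and at 8.19, 7.98 and 7.96 in mutant vehicle. All finasteride libraries were above all vehicle ones, with library 2 only just so. Flt1 rose by 0.55 ± 0.12 (adjusted p = 0.00183), and over 11 libraries it did not pass (0.44, adjusted p = 0.114).

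Tek, the angiopoietin receptor, was at 7.86, 7.49, 7.89, 7.67 and 7.78 in mutant finasteride and at 6.78, 6.81 and 6.80 in mutant vehicle. The groups were far apart and the vehicle libraries almost equal. Tek rose by 0.94 ± 0.12 (adjusted p = 1.42e-05; 0.91 and adjusted p = 0.00776 over 11 libraries). Its partner Tie1, which has no ligand of its own known to activate it directly, was at 8.45, 8.22, 8.47, 8.38 and 7.96, against 7.04, 7.38 and 7.19 on vehicle. Tie1 rose by 1.09 ± 0.16 (adjusted p = 4.74e-05), again with no overlap. Eng, the endothelial co-receptor for BMP9 and TGF-beta, was at 9.60 to 9.76 in mutant finasteride and at 9.35, 9.71 and 9.43 in mutant vehicle, and these ranges overlapped. Its difference was 0.21 ± 0.13, with a 95% interval of -0.05 to 0.48 (adjusted p = 0.173).

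Among junction genes, Pecam1 was at 9.93, 9.52, 9.89, 9.69 and 9.64 in mutant finasteride and at 8.88, 8.73 and 8.78 in mutant vehicle. Pecam1 lies at endothelial contacts and also on platelets and leukocytes. It rose by 0.94 ± 0.10 (adjusted p = 3.87e-06). Cdh5, the cadherin of endothelial adherens junctions, was at 8.43 to 8.83 in mutant finasteride and at 7.85 to 8.09 in mutant vehicle, and rose by 0.72 ± 0.11 (adjusted p = 1.22e-04). Cldn5, which seals endothelial tight junctions, was at 7.97, 7.24, 7.74, 7.71 and 7.20 in mutant finasteride and at 6.26, 6.05 and 5.94 in mutant vehicle. This was the largest rise of the 10, 1.49 ± 0.19 (adjusted p = 1.69e-05), and the groups were far from overlapping.

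Vwf, the clotting protein that endothelial cells store and release, was at 9.75, 8.72, 9.71, 9.48 and 9.16 in mutant finasteride and at 7.87, 8.15 and 7.84 in mutant vehicle. It rose by 1.41 ± 0.23 (adjusted p = 1.60e-04), with library 2 the nearest to vehicle. Emcn, a sialomucin of capillary and venous endothelium, was at 7.74, 7.05, 7.72, 7.53 and 7.56 in mutant finasteride and at 6.36, 6.39 and 6.32 in mutant vehicle. It rose by 1.16 ± 0.23 (adjusted p = 6.82e-04). Over 11 libraries 7 of the 8 calls held, all but that of Flt1, where 20.3% of all genes passed in either direction. The seminal vesicle covariate changed no call here.

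Within the mutant finasteride group, library 2 had the lowest value for 7 of the 10 members and library 1 the highest for 7. Library 2 was also the one with the lowest seminal vesicle mean, and its Svs2, a seminal vesicle secretory protein, was at 11.52, against 20.06 to 21.17 in the other 4. Svs4, of the same list, ran the other way, at 16.25 in library 2 and 14.57 to 16.06 in the other 4. Without library 2, 9 members rose, Kdr being the one added. The share of all genes that rose in that fit was not recorded, so this count is no result about the members.

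**Figure D2:**
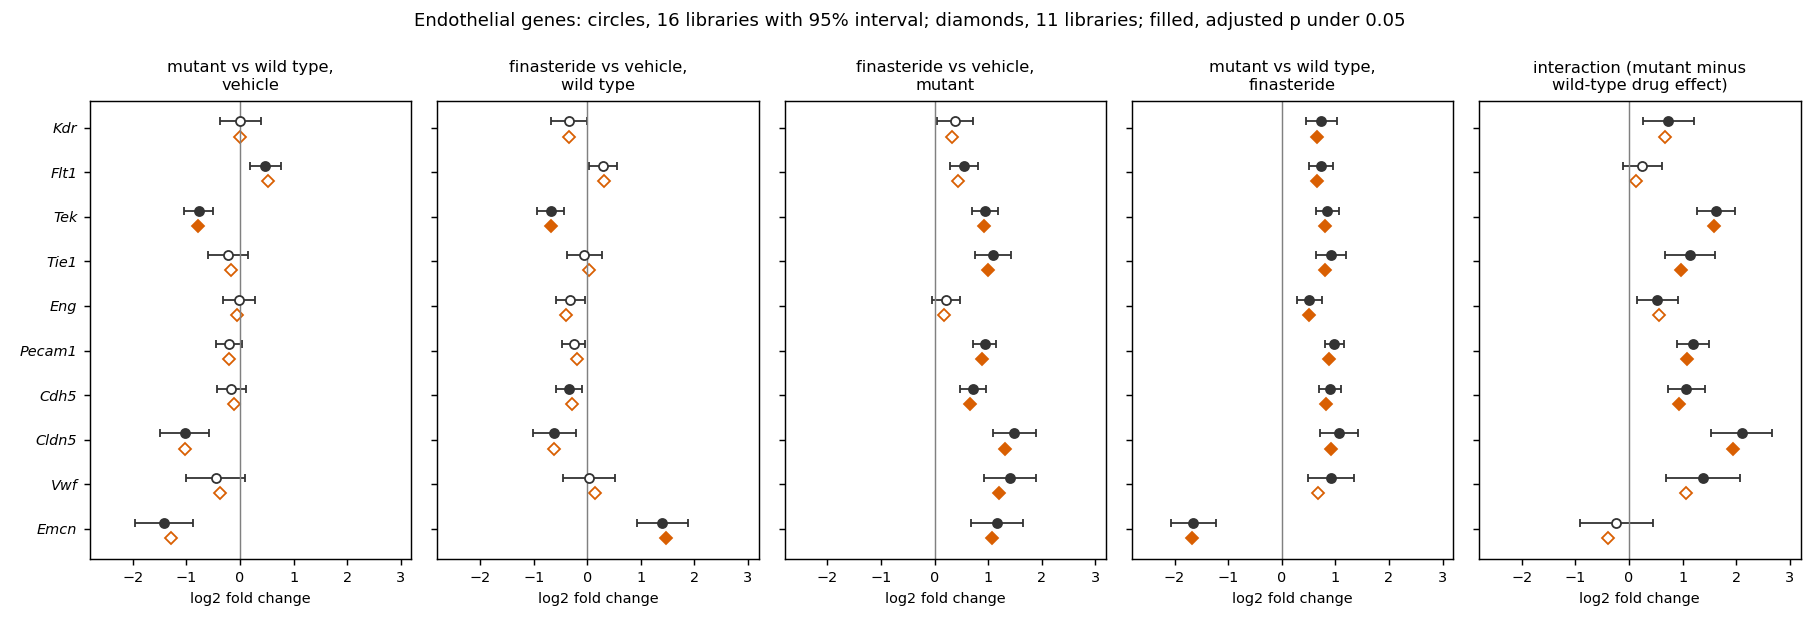
Log2 fold changes (x axis) of the 10 endothelial genes (rows) in 5 comparisons. Circles are fits on 16 libraries with 95% intervals, diamonds fits on 11 libraries, and filled symbols have an adjusted p under 0.05. In mutants on finasteride against mutants on vehicle 8 circles are filled to the right of 0, and Emcn alone lies to the left in mutants against wild type on finasteride.

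In wild type, finasteride against vehicle gave a different picture. Only Emcn rose, and Tek, Cldn5 and Cdh5 fell, where 17.9% of all genes rose and 21.9% fell. Counts of 1 and 3 of 10 members are near those shares and are no result about the members. The member median was -0.28, beside -0.03 over all genes tested.

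Emcn was at 9.05, 8.98, 9.17, 9.33 and 9.34 in wild-type finasteride and at 6.999, 8.33 and 7.99 in wild-type vehicle. All 5 treated libraries were above all 3 vehicle libraries and the vehicle libraries were far apart. Emcn rose by 1.40 ± 0.23 (adjusted p = 3.64e-04; 1.47 and adjusted p = 0.0261 over 11 libraries). With the seminal vesicle covariate the rise was 0.95 (adjusted p = 0.0444). The vehicle library lowest in Emcn had the highest seminal vesicle mean (18.7), and the one highest in Emcn the lowest (6.85). The part of this in the result was tested only through the covariate.

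Tek was at 7.04, 6.91, 6.87, 6.84 and 6.76 in wild-type finasteride and at 7.80, 7.34 and 7.57 in wild-type vehicle, with no overlap. It fell by 0.68 ± 0.12 (log2 fold change -0.68, adjusted p = 5.48e-04; -0.67 and adjusted p = 0.0423 over 11 libraries). With the covariate the difference was -0.40 (adjusted p = 0.0675). Cldn5 was at 6.85, 6.57, 6.17, 6.28 and 6.66, against 7.09, 7.29 and 6.98 on vehicle. Its fall (-0.61 ± 0.19, adjusted p = 0.0183) did not pass over 11 libraries (adjusted p = 0.129), with the covariate (adjusted p = 0.166), after quantile normalization (-0.29, adjusted p = 0.222), or without wild-type vehicle library 1 or library 2 (highest adjusted p = 0.0740).

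Cdh5 was at 8.07, 7.80, 7.56, 7.71 and 7.74 in wild-type finasteride and at 8.06, 8.09 and 8.20 in wild-type vehicle, and treated library 1 overlapped the vehicle ones. Its difference of -0.34 ± 0.11 (adjusted p = 0.0284) did not pass over 11 libraries (adjusted p = 0.274) or with the covariate (adjusted p = 0.408). Nor did it pass after quantile normalization (-0.22, adjusted p = 0.106), after median centring (-0.27, adjusted p = 0.0564) or with only the 2 groups in the fit (adjusted p = 0.0573). It also did not pass without any 1 of the 3 vehicle libraries or without finasteride library 3 or 4 (highest adjusted p = 0.112). Pecam1, Kdr, Eng and Flt1 were near the threshold (-0.25, -0.35, -0.32 and 0.30, adjusted p = 0.0581, 0.0956, 0.0551 and 0.0622), and their calls turned on single libraries. Pecam1, Kdr and Eng fell without wild-type finasteride library 1. Pecam1 also fell without wild-type finasteride library 2 or mutant finasteride library 1 or 2. Eng also fell without mutant vehicle library 2, and after quantile normalization (-0.34, adjusted p = 0.0338). Flt1 rose without wild-type vehicle library 2 or mutant finasteride library 2, and also after quantile normalization (0.46) or median centring (0.37). Vwf (0.03 ± 0.23) and Tie1 (-0.05 ± 0.16) did not pass. Over 11 libraries Emcn and Tek passed, where 8.55% of all genes did.

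Wild-type finasteride library 1 had the highest value for 7 of the 10 members in its group and library 3 the lowest for 6. Without library 1, 6 members fell in place of 3, with Pecam1, Kdr and Eng added. Without wild-type vehicle library 1 or library 2, 1 member fell, namely Tek. The shares of all genes that fell in these fits were not recorded, so these counts are no result about the members.

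On vehicle, mutant against wild type asked what the mutation does without the drug. Tek, Cldn5 and Emcn were lower in mutants and Flt1 was higher, where 17.5% of all genes were lower and 14.3% higher. Here too, counts of 3 and 1 of 10 members are near those shares and are no result about the members. The member median was -0.22, beside -0.00191 over all genes tested.

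Tek was at 6.78, 6.81 and 6.80 in mutant vehicle, against 7.80, 7.34 and 7.57 in wild-type vehicle, a difference of -0.77 ± 0.13 (adjusted p = 3.95e-04). It was the only member called over 11 libraries (-0.77, adjusted p = 0.0384), where 9.06% of all genes passed. Cldn5 was at 6.26, 6.05 and 5.94 in mutants, against 7.09, 7.29 and 6.98 in wild type (-1.03 ± 0.21, adjusted p = 0.00172). Emcn was at 6.36, 6.39 and 6.32 in mutants, against 6.999, 8.33 and 7.99 in wild type (-1.41 ± 0.25, adjusted p = 6.33e-04). Neither Cldn5 nor Emcn passed over 11 libraries (adjusted p = 0.0540 and 0.0532), although their differences there, -1.03 and -1.29, were of like size.

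Flt1 was at 8.19, 7.98 and 7.96 in mutant vehicle, against 7.39, 7.73 and 7.59 in wild-type vehicle. The groups did not overlap, and Flt1 was higher by 0.48 ± 0.14 (adjusted p = 0.0148). This call was lost over 11 libraries (adjusted p = 0.135) and without wild-type vehicle library 1 or mutant vehicle library 1 (highest adjusted p = 0.0690). The 6 members that did not pass had differences of -0.46 (Vwf) to 0.01 (Kdr).

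On finasteride, mutants against wild type differed in all 10 members. In mutants 9 were higher and 1, Emcn, was lower, where 33.9% of all genes were higher and 29.7% lower. The member median was 0.88, beside 0.02 over all genes tested. This comparison and that of treated with untreated mutants share the 5 mutant finasteride libraries and are not independent.

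Pecam1 (0.98 ± 0.09, adjusted p = 1.52e-07), Cdh5 (0.90 ± 0.10, adjusted p = 1.52e-06) and Tek (0.85 ± 0.10, adjusted p = 3.43e-06) had the lowest p-values of the higher members. For all of them every mutant library was above every wild-type one. Cldn5 was higher by 1.07 ± 0.16, Tie1 by 0.92 ± 0.13, Vwf by 0.92 ± 0.20, Kdr by 0.74 ± 0.14, Flt1 by 0.72 ± 0.11 and Eng by 0.51 ± 0.11. Vwf overlapped, with mutant library 2 at 8.72 and wild-type libraries 1 and 2 at 8.74 and 8.98. Over 11 libraries Vwf did not pass (0.68, adjusted p = 0.0582), and the other 8 did, where 41.1% of all genes passed.

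Emcn ran the other way. It was at 7.05 to 7.74 in mutant finasteride and at 8.98 to 9.34 in wild-type finasteride, with a wide gap between them. The difference was -1.65 ± 0.20 (adjusted p = 3.27e-06; -1.68 and adjusted p = 0.00101 over 11 libraries). With the seminal vesicle covariate it was -1.29 (adjusted p = 4.69e-04).

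The interaction, the finasteride effect in mutants minus that in wild type, tested whether the drug response differed by genotype. It was higher for 8 members and lower for 0, where 30.2% of all genes were higher and 26.6% lower, and the member median was 1.11, beside -0.00194 over all genes tested. Cldn5 had the largest value (2.11 ± 0.27, adjusted p = 1.42e-05), from a rise of 1.49 in mutants and a fall (log2 fold change -0.61) in wild type. Tek (1.62 ± 0.17, adjusted p = 2.00e-06) likewise rose in mutants and fell in wild type. Vwf (1.37 ± 0.33), Pecam1 (1.19 ± 0.14), Tie1 (1.15 ± 0.22), Cdh5 (1.06 ± 0.16), Kdr (0.73 ± 0.23) and Eng (0.53 ± 0.18) also passed.

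Over 11 libraries the interaction passed for Pecam1, Cldn5, Cdh5, Tek and Tie1, where 29.4% of all genes passed, and not for Kdr (adjusted p = 0.154), Eng (adjusted p = 0.122) or Vwf (adjusted p = 0.0854). The covariate ended the calls of Kdr (adjusted p = 0.208) and Eng (adjusted p = 0.180). Quantile normalization ended that of Kdr (0.48, adjusted p = 0.0720), median centring ended that of Eng (0.32, adjusted p = 0.136), and leaving out wild-type vehicle library 1 or mutant vehicle library 1 ended that of Eng (highest adjusted p = 0.0629). Flt1 (0.25, 95% interval -0.12 to 0.61; adjusted p = 0.0439 without mutant finasteride library 2) and Emcn (-0.24, 95% interval -0.92 to 0.44) did not pass. Emcn rose with finasteride in both genotypes, by 1.16 in mutants and 1.40 in wild type.

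Across the treatment diagonal, mutant finasteride against wild-type vehicle gave 5 members higher and 0 lower, where 17.9% of all genes were higher and 18.1% lower. These were Flt1 (1.02 ± 0.12), Vwf (0.95 ± 0.23), Tie1 (0.86 ± 0.16), Pecam1 (0.73 ± 0.10) and Cdh5 (0.56 ± 0.11). Over 11 libraries Flt1, Tie1 and Pecam1 passed, where 13.5% of all genes did. Tek (0.17, 95% interval -0.08 to 0.42) and Emcn (-0.25, 95% interval -0.73 to 0.23) did not pass, and a difference in them was not shown. Without wild-type vehicle library 1, Emcn was lower in treated mutants (-0.64, adjusted p = 0.0104). With the seminal vesicle covariate Kdr was higher (0.44, adjusted p = 0.0386). Without mutant finasteride library 2, Cldn5 (0.54, adjusted p = 0.0343) and Kdr (0.49, adjusted p = 0.0133) were higher, and Cldn5 was also higher without mutant finasteride library 5 (0.55, adjusted p = 0.0354).

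Wild-type finasteride against mutant vehicle gave only Emcn higher, by 2.82 ± 0.23 (adjusted p = 2.39e-07; 2.76 and adjusted p = 4.88e-04 over 11 libraries), and 0 members lower. Over all genes 14.7% were higher and 15.9% lower, and 11.7% passed over 11 libraries. The other members differed by -0.35 (Kdr) to 0.49 (Vwf), and Eng was lower without wild-type finasteride library 1 (-0.39, adjusted p = 0.0110).

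The order of the group means shows the same contrast between Emcn and the rest. Mutant finasteride was the highest group for 9 members. Mutant vehicle was the lowest for Cldn5, Tek, Tie1 and Vwf, wild-type finasteride was the lowest for Pecam1, Cdh5, Kdr and Eng, and wild-type vehicle was the lowest for Flt1. For each of these 9 members the lowest group was not called apart from the next one (lowest adjusted p = 0.0622, for Flt1). Nor was mutant finasteride called apart from the next group for Cldn5, Tek, Kdr and Eng (lowest adjusted p = 0.0558, for Kdr). The order is therefore not resolved at these places. For Vwf, 8.44 ± 0.39 in wild-type finasteride and 8.41 ± 0.15 in wild-type vehicle (SD, n = 5 and 3) differed by far less than their spread, as did 8.80 ± 0.07 in mutant vehicle and 8.75 ± 0.15 in wild-type finasteride for Pecam1 (SD, n = 3 and 5). For Emcn the order was mutant vehicle at 6.36 ± 0.03 (SD, n = 3), mutant finasteride at 7.52 ± 0.28 (n = 5), wild-type vehicle at 7.77 ± 0.69 (n = 3) and wild-type finasteride at 9.18 ± 0.16 (n = 5). The middle pair did not differ beyond its spread.

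**Figure D3:**
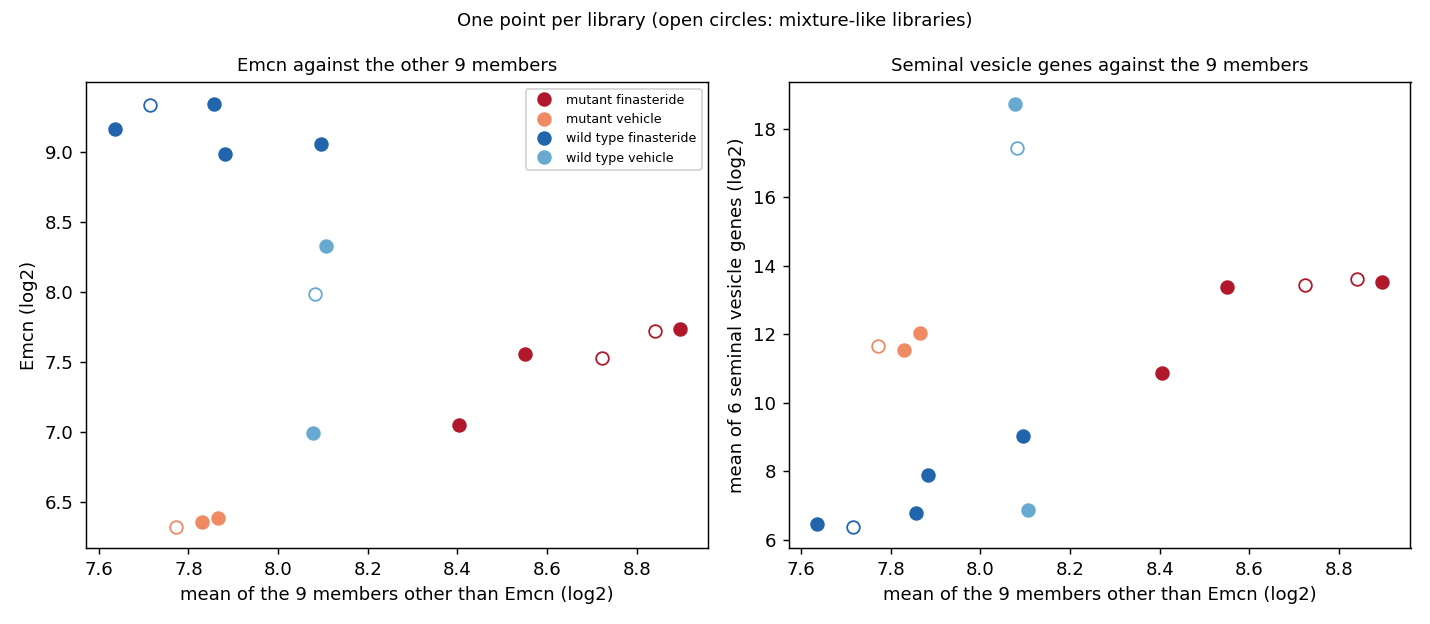
Left, Emcn (log2, y axis) against the mean of the other 9 endothelial genes (log2, x axis). Right, the mean of 6 seminal vesicle genes (log2, y axis) against the same x axis. Each point is a library coloured by group, open circles being mixture-like ones. Mutant finasteride libraries lie between 8.40 and 8.90 with Emcn between 7.05 and 7.74, and wild-type finasteride libraries lie between 7.64 and 8.09 with Emcn between 8.98 and 9.34.

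Over the 16 libraries, Pearson's r of each member with the mean of the others was 0.51 (Eng) to 0.93 (Vwf), and -0.20 for Emcn. These libraries share 4 groups, so the values describe the groups as much as the libraries. Within the 5 mutant finasteride libraries alone, Emcn followed the others (r = 0.90), as did Vwf (r = 0.99), whereas Eng did not (r = 0.20). Within the 5 wild-type finasteride libraries Emcn had r = -0.47. Libraries 3 and 4 of mutant finasteride and 4 of wild-type finasteride are mixture-like, so these r may rest on fewer distinct libraries.

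The genes with patterns most like the mean of the 10 members, among 14647 compared over 16 libraries, were Kcnj8 (r = 0.97), Lrrc32, Ehbp1l1, Ggt5, Myrip, Cntfr, Mmrn2 and Fads3 (r = 0.96 for the last). Kcnj8, a potassium channel subunit of mural cells, averaged 7.83 in mutant finasteride and 6.55 in mutant vehicle. Mmrn2, an endothelial matrix protein, averaged 7.97 and 7.02 in the same groups. Without Emcn the nearest gene was Epas1 (r = 0.99), a hypoxia-inducible transcription factor abundant in endothelium, followed by Ggt5, Alox5ap, Nptxr, Atp2a3, Adam19, Bmp6 and Plxnd1. The genes nearest to Emcn alone were different ones. Basp1 came first (r = 0.99), at 8.28 in mutant finasteride, 5.99 in mutant vehicle, 10.67 in wild-type finasteride and 8.63 in wild-type vehicle, and Rnf145, Itih2, Klhl22, Armcx2, Slc27a3 and Dzip1l were among those that followed.

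Ligands of these receptors were followed next. Of 9 VEGF, angiopoietin and apelin ligands, 4 rose and 2 fell with finasteride in mutants, with a median of 0.25, and 3 and 0 over 11 libraries. Counts here and in the lists below stand beside 26.3% of all tested genes that rose and 22.3% that fell. With finasteride in wild type 17.9% rose and 21.9% fell, and on finasteride 33.9% were higher and 29.7% lower in mutants. Over 11 libraries 20.3%, 8.55% and 41.1% passed in these comparisons. Angpt2, a ligand of Tek that blocks or weakly activates it depending on context, was at 8.87, 10.63, 9.29, 9.56 and 10.07 in mutant finasteride and at 11.13, 11.17 and 11.15 in mutant vehicle. In wild type it was at 6.06 to 6.91 on finasteride and at 7.37 to 7.61 on vehicle. The mutant libraries were therefore all far above the wild-type ones.

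On vehicle Angpt2 was 3.64 ± 0.33 higher in mutants (adjusted p = 1.48e-06), and on finasteride 3.06 ± 0.25 higher (adjusted p = 7.04e-08). Both held over 11 libraries (3.58 and 3.23). Finasteride lowered it in mutants by a log2 fold change of -1.47 ± 0.29 (adjusted p = 7.60e-04; adjusted p = 0.0529 over 11 libraries) and in wild type by -0.88 ± 0.29 (adjusted p = 0.0252; adjusted p = 0.141 over 11 libraries). The wild-type call was also lost with the covariate, and without any 1 of the 3 wild-type vehicle libraries or wild-type finasteride library 5. Among mutant finasteride libraries, library 2 was the highest in Angpt2 and was at or near the bottom for most members.

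Angpt1, the activating ligand of Tek that mural cells make, was at 7.22, 5.66, 6.96, 6.61 and 6.75 in mutant finasteride and at 5.28, 5.35 and 5.54 in mutant vehicle. Library 2 lay close to vehicle and the other 4 well above. Angpt1 rose by 1.25 ± 0.30 (adjusted p = 0.00307; adjusted p = 0.0713 over 11 libraries). In wild type it was at 4.58 to 5.67 on finasteride and at 5.45 to 5.81 on vehicle and did not pass (-0.71, adjusted p = 0.0709), except without wild-type finasteride library 2 or mutant finasteride library 2. Its interaction was 1.95 ± 0.42 (adjusted p = 0.00117; adjusted p = 0.0468 over 11 libraries).

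Pgf, placental growth factor, a ligand of Flt1, was at 6.84 to 7.27 in mutant finasteride and at 4.94, 5.80 and 5.02 in mutant vehicle. It rose by 1.82 ± 0.24 in mutants (adjusted p = 2.76e-05) and fell in wild type (-0.89 ± 0.24, adjusted p = 0.00962). The fall in wild type did not pass over 11 libraries (adjusted p = 0.133). Figf, the gene for VEGF-D, rose by 1.34 ± 0.20 in mutants (adjusted p = 6.26e-05). In wild type Figf was lower by a log2 fold change of -0.60 ± 0.20 (adjusted p = 0.0241), a call lost over 11 libraries (adjusted p = 0.235), with the covariate (adjusted p = 0.622), and without wild-type vehicle library 1 or 3 or wild-type finasteride library 4 or 5. Angptl4, a secreted lipase inhibitor with effects on vessels, rose in mutants (1.64 ± 0.33, adjusted p = 9.41e-04).

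Vegfa itself was at 10.66 to 10.95 in mutant finasteride and at 11.28 to 11.33 in mutant vehicle, all treated libraries being lower. Its difference was -0.54 ± 0.17 (adjusted p = 0.0145), and -0.51 over 11 libraries (adjusted p = 0.160). In wild type Vegfa ranged from 10.78 to 11.49 on finasteride and from 10.43 to 11.20 on vehicle, which overlapped. The wild-type difference of 0.44 ± 0.17 (adjusted p = 0.0459) did not pass over 11 libraries (adjusted p = 0.293), with the covariate (adjusted p = 0.0873) or in most fits that left out 1 library. Vegfb, another ligand of Flt1, was at 9.42 to 10.23 in wild-type finasteride and at 9.01 to 9.23 in wild-type vehicle, and rose by 0.74 ± 0.14 (adjusted p = 0.00127; adjusted p = 0.0530 over 11 libraries). In mutants Vegfb did not pass (-0.35 ± 0.14, adjusted p = 0.0561), except without wild-type finasteride library 1 or 2 or mutant finasteride library 2.

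**Figure D4:**
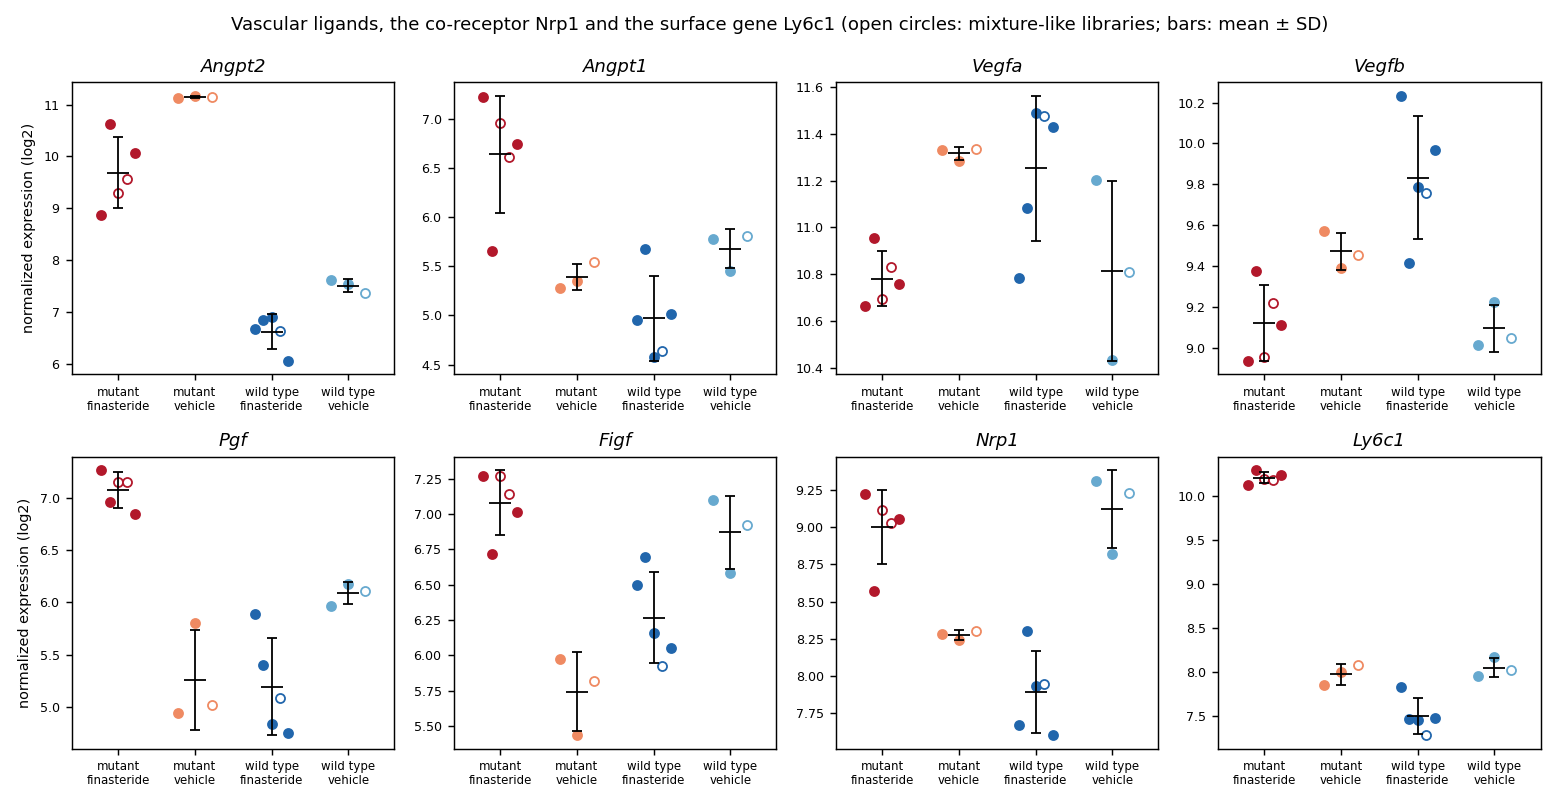
Normalized expression (log2, y axis, a separate scale for each gene) of 6 vascular ligands, the co-receptor Nrp1 and the surface gene Ly6c1 in 16 libraries by group (x axis), with open circles for mixture-like libraries and bars for the mean ± SD. Angpt2 lies between 8.87 and 11.17 in all mutant libraries and between 6.06 and 7.61 in all wild-type ones, and Ly6c1 is above 10 only in mutants on finasteride.

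Receptors beyond the members were counted in the same way. Of 8 other VEGF and guidance receptors, 6 rose and 0 fell with finasteride in mutants (median 0.73), and 2 passed over 11 libraries. Plxnd1, a semaphorin receptor of endothelium, rose by 1.02 ± 0.15 (adjusted p = 8.60e-05), and Nrp2, a co-receptor, by 0.74 ± 0.12 (adjusted p = 1.96e-04). Nrp1, the co-receptor of Kdr for VEGF-A, was at 8.57 to 9.22 in mutant finasteride and at 8.24 to 8.30 in mutant vehicle, and rose by 0.72 ± 0.16 (adjusted p = 0.00208; adjusted p = 0.0759 over 11 libraries). In wild type Nrp1 was at 7.60 to 8.30 on finasteride and at 8.82 to 9.31 on vehicle, and fell (-1.23 ± 0.16, adjusted p = 9.44e-05; adjusted p = 0.0224 over 11 libraries and 0.0149 with the covariate). Its interaction was 1.95 ± 0.23 (adjusted p = 7.61e-06).

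Of 15 transcription factors of endothelium, 11 rose and 2 fell with finasteride in mutants (median 1.01), and 10 and 1 over 11 libraries. Their summed level, in log2, overlapped between these groups, at 13.1 to 13.5 in mutant finasteride and 13.4 to 13.6 in mutant vehicle. In wild type the sum was 13.1 to 13.9 on finasteride and 13.3 to 13.4 on vehicle. Epas1 was at 10.47 to 11.20 in mutant finasteride and at 9.61 to 9.67 in mutant vehicle, and rose by 1.23 ± 0.13 (adjusted p = 4.87e-06). Ets1, an ETS factor, rose by 0.71 ± 0.08 (adjusted p = 9.64e-06), and Hhex, a homeobox factor, by 1.69 ± 0.21 (adjusted p = 1.18e-05). Sox7, 1 of the 2 that fell, went against them. It was at 5.27 to 5.98 in mutant finasteride and at 6.77, 7.20 and 7.02 in mutant vehicle, and fell (-1.39 ± 0.18, adjusted p = 1.66e-05). On vehicle Sox7 was 1.89 ± 0.20 higher in mutants than in wild type (adjusted p = 5.78e-06). In wild type 10 of the 15 factors fell with finasteride and 1 rose, and 0 passed over 11 libraries. Those with the lowest p were Ets1 (-0.30), Erg (-0.67), Fli1 (-0.58) and Mef2c (-0.72). The calls of Ets1 and Erg were lost without wild-type vehicle library 2, that of Mef2c without library 3 and that of Fli1 without library 1 or 3, and all of them with the covariate (lowest adjusted p = 0.0577, for Ets1).

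Of 19 other junction and surface genes, 17 rose and 0 fell with finasteride in mutants (median 0.93), 10 of them over 11 libraries. Ly6c1, a small surface protein of endothelium that monocytes and T cells also carry, was at 10.13 to 10.29 in mutant finasteride and at 7.85, 8.00 and 8.08 in mutant vehicle. It was at 7.28 to 7.83 in wild-type finasteride and at 7.96 to 8.17 in wild-type vehicle. Ly6c1 rose by 2.23 ± 0.10 in mutants (adjusted p = 1.22e-09) and fell in wild type (-0.55 ± 0.10, adjusted p = 0.00101; adjusted p = 0.0502 over 11 libraries). Plvap, which forms the diaphragms of endothelial pores, rose by 1.03 ± 0.13 in mutants (adjusted p = 1.63e-05), Ecscr by 1.28 ± 0.16 (adjusted p = 1.86e-05) and Ramp2, a subunit of the adrenomedullin receptor, by 1.21 ± 0.16 (adjusted p = 2.71e-05). On finasteride 18 of the 19 were higher in mutants than in wild type and 0 lower (16 over 11 libraries), and in wild type 9 fell and 0 rose with the drug (0 over 11 libraries).

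Of 13 genes of coagulation and vessel tone, 10 rose and 0 fell with finasteride in mutants (median 0.998), 7 of them over 11 libraries. Sele and Adamts13 stand in these counts and this median. Both averaged under 10 out of log2 in every group but mutant finasteride, and their part in these counts was not separated. Procr, the protein C receptor, was at 5.94 to 6.12 in mutant finasteride and at 4.45 to 4.54 in mutant vehicle, and rose by 1.54 ± 0.17 (adjusted p = 4.87e-06). In wild type Procr was at 3.78 to 4.59 on finasteride and at 5.31 to 5.41 on vehicle, and fell (-0.98 ± 0.17, adjusted p = 5.79e-04; adjusted p = 0.0401 over 11 libraries). Ptgis, prostacyclin synthase, rose by 0.97 ± 0.13 (adjusted p = 2.37e-05), Ece1, which activates endothelins, by 0.73 ± 0.11 (adjusted p = 5.25e-05), and Plat, tissue plasminogen activator, by 0.998 ± 0.16 (adjusted p = 1.32e-04). Edn1, the endothelin precursor, had an interaction of 3.52 ± 0.45 (adjusted p = 1.62e-05). It was at 7.32 to 7.71 in mutant finasteride, 5.47 to 6.13 in mutant vehicle, 5.44 to 7.34 in wild-type finasteride and 7.46 to 8.17 in wild-type vehicle. Sele, E-selectin of activated endothelium, was at 6.77, 2.72, 6.23, 6.25 and 5.55 in mutant finasteride libraries, of which library 2 lay far below the rest. It was at 1.72 to 2.89 in mutant vehicle, 1.28 to 1.75 in wild-type finasteride and 1.55 to 2.63 in wild-type vehicle. Sele averaged under the limit of 10 out of log2 in those 3 groups and was tested only through the mutant finasteride libraries, so it is given as values with no fold or p.

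Genes of BMP and TGF-beta signalling, the pathway of Eng, were divided. With finasteride in mutants 4 of 10 rose and 5 fell (median -0.16), and over 11 libraries 0 and 1. Bmpr2, a type II receptor, fell (-1.25 ± 0.22, adjusted p = 2.84e-04), and Acvrl1, the type I receptor that works with Eng, rose by 0.63 ± 0.15 (adjusted p = 0.00331; adjusted p = 0.103 over 11 libraries). The target Id1 was 2.07 ± 0.24 higher in mutants on vehicle (adjusted p = 1.71e-05) and 2.37 ± 0.19 higher in mutants on finasteride (adjusted p = 4.69e-08), each against wild type on the same treatment. Id1 is also expressed outside endothelium.

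Of 12 Notch and arterial genes, 8 rose and 1 fell with finasteride in mutants (median 0.75), but 1 and 1 over 11 libraries. Gja4, a connexin of arterial endothelium, was at 6.38 to 6.86 in mutant finasteride and at 5.34 to 5.54 in mutant vehicle, and rose by 1.20 ± 0.19 (adjusted p = 1.09e-04). In wild type it was at 4.47 to 5.17 on finasteride and at 5.53 to 6.13 on vehicle, and fell (-0.89 ± 0.19, adjusted p = 0.00209; adjusted p = 0.0257 over 11 libraries). Hey1, a Notch target, fell in mutants (-0.81 ± 0.14, adjusted p = 2.95e-04). Of 11 hypoxia response genes, 3 rose and 3 fell in mutants (median 0.09), near the shares of 26.3% and 22.3% over all genes, and 1 and 0 over 11 libraries. Egln3, an oxygen-sensing hydroxylase, rose by 2.01 ± 0.31 (adjusted p = 9.48e-05). On finasteride P4ha1, a subunit of collagen prolyl hydroxylase, was lower in mutants than in wild type (-1.88 ± 0.12, adjusted p = 3.77e-09), after a rise of 1.06 ± 0.14 with the drug in wild type (adjusted p = 7.03e-05).

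**Figure D5:**
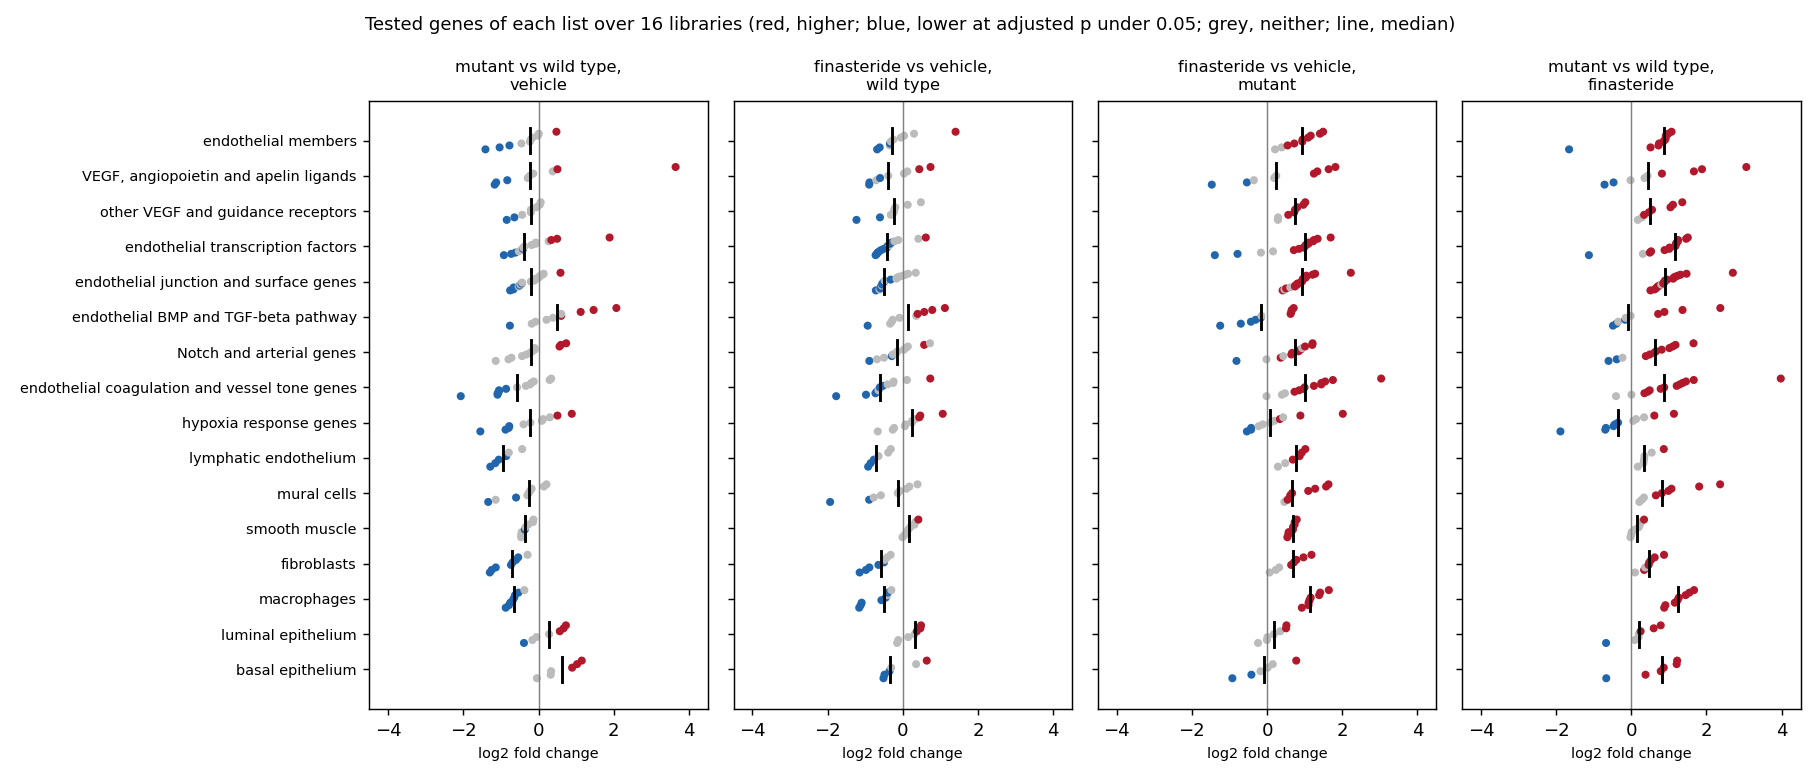
Log2 fold changes (x axis) of the tested genes of each list (rows) in 4 comparisons over 16 libraries. Points are genes, red when higher and blue when lower at an adjusted p under 0.05, grey otherwise, and the black line is the median. With finasteride in mutants the medians of the members (0.94), transcription factors (1.01) and macrophages (1.14) lie to the right of 0, as do those of mural cells, smooth muscle and fibroblasts.

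Markers of other cell types moved in the same comparisons, and their part in the endothelial results was not tested. With finasteride in mutants 8 of 9 mural cell genes rose (3 over 11 libraries), as did 8 of 8 smooth muscle genes (1), 5 of 8 fibroblast genes (2), 8 of 8 macrophage genes (8), 4 of 6 lymphatic endothelial genes (2), 3 of 4 pan-leukocyte genes (3) and 2 of 7 luminal epithelial genes (1). No gene of these lists fell, where 26.3% of all tested genes rose and 22.3% fell. The luminal count is near the share that rose and is no result about luminal genes. Of 6 seminal vesicle genes 1 rose and 0 fell (0 and 0 over 11 libraries). The summed mural level, in log2, was 12.6 to 12.7 in mutant finasteride, 11.2 to 11.4 in mutant vehicle, 10.5 to 11.8 in wild-type finasteride and 11.9 to 12.4 in wild-type vehicle. The summed macrophage level was 12.4 to 13.1 in mutant finasteride, 11.5 to 11.6 in mutant vehicle, 11.2 to 11.8 in wild-type finasteride and 12.1 to 12.2 in wild-type vehicle.

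The summed smooth muscle level was 16.6 to 16.9 in mutant finasteride and 15.95 to 16.2 in mutant vehicle, against 16.4 to 17.1 in wild-type finasteride and 16.3 to 16.6 in wild-type vehicle. The summed fibroblast level was 15.3 to 15.4 in mutant finasteride and 14.7 in all mutant vehicle libraries, against 14.7 to 15.3 in wild-type finasteride and 15.4 to 15.6 in wild-type vehicle. The summed pan-leukocyte level was 14.6 to 15.2 in mutant finasteride and 14.6 to 14.9 in mutant vehicle, against 10.5 to 11.9 in wild-type finasteride and 10.9 to 13.0 in wild-type vehicle, so all mutant libraries were above all wild-type ones.

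In mutants against wild type on finasteride, 8 of 8 macrophage genes, 6 of 9 mural genes, 6 of 8 fibroblast genes, 4 of 4 pan-leukocyte genes and 4 of 6 seminal vesicle genes were higher and none of these lower. Over 11 libraries these counts were 8, 4, 0, 4 and 4. Of 8 smooth muscle genes only 1 was higher (0 over 11 libraries), and of 6 lymphatic endothelial genes only 1 (1), with 0 lower in either list. Of all tested genes 33.9% were higher and 29.7% lower over 16 libraries, and 41.1% passed over 11. With finasteride in wild type, 6 of 8 macrophage genes, 5 of 8 fibroblast genes, 2 of 9 mural genes and 6 of 6 seminal vesicle genes fell and none of these rose. Over 11 libraries these counts were 3, 3, 0 and 0. Of all tested genes 21.9% fell and 17.9% rose over 16 libraries, and 8.55% passed over 11. The mural count is near the share that fell. In mutants against wild type on vehicle, 7 of 8 macrophage genes, 7 of 8 fibroblast genes and 4 of 6 lymphatic genes were lower and none higher, and over 11 libraries 0, 2 and 2 were lower. Of all tested genes 17.5% were lower and 14.3% higher over 16 libraries, and 9.06% passed over 11. Of the mural, smooth muscle, fibroblast, macrophage, luminal and pan-leukocyte genes, only Higd1b in wild-type vehicle averaged under 10 out of log2.

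Fat cell genes moved in some of these comparisons. Of 7 adipocyte genes, 2 rose with finasteride in mutants (median 1.57), near the 26.3% of all genes that did. With the drug in wild type 6 fell (median -3.81), where 21.9% of all genes fell. Over 11 libraries these counts were 1 and 4. In mutants against wild type on finasteride, where 33.9% of all genes were higher, 6 were higher and 1 lower (median 3.71), with 6 and 0 over 11 libraries. The interaction, higher for 30.2% of all genes, was higher for 6 adipocyte genes (median 5.38), also 6 over 11 libraries. Their summed level was 10.8 to 11.5 in mutant finasteride, 9.98 to 10.4 in mutant vehicle, 9.50 to 10.8 in wild-type finasteride and 11.3 to 11.6 in wild-type vehicle, and Lep averaged under 10 out of log2 in wild-type finasteride.

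Of 6 basal epithelial genes, 1 rose and 2 fell with finasteride in mutants (1 and 1 over 11 libraries), near the shares of 26.3% and 22.3% over all genes. On finasteride, where 33.9% of all genes were higher in mutants, 5 basal genes were higher and 1 lower than in wild type (4 and 1). Their summed level was 12.6 to 13.1 in mutant finasteride, 12.7 in all mutant vehicle libraries, 11.8 to 12.1 in wild-type finasteride and 12.2 to 12.3 in wild-type vehicle. Of 6 skeletal muscle genes tested, 3 rose with finasteride in mutants (2 over 11 libraries), where 26.3% of all genes rose and 20.3% passed over 11. Myh1, Myh2, Myh4 and Tnnt3 of the 7 listed averaged under 10 out of log2 in mutant vehicle. Their part in this count was not separated. With the drug in wild type 3 skeletal muscle genes fell and 1 rose (0 and 0), where 21.9% of all genes fell and 17.9% rose. Of 3 red blood cell genes tested 2 rose with finasteride in mutants (1).

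The mural gene Rgs5 was at 7.90 in mutant finasteride library 2, against 8.82 to 9.30 in the other 4 and 8.13 to 8.22 in mutant vehicle. The summed lymphatic level was 9.89 to 10.5 in mutant finasteride and 9.45 to 9.64 in mutant vehicle, against 9.46 to 10.4 in wild-type finasteride and 10.2 to 10.7 in wild-type vehicle. Among platelet genes, which matter for Vwf and Pecam1 because platelets hold both proteins, 2 of the 4 tested rose with finasteride in mutants (1 over 11 libraries) and 0 fell. Of all tested genes 26.3% rose and 22.3% fell, and 20.3% passed over 11 libraries. With 4 genes tested, these counts are no result about platelets. The summed level of all 7 listed platelet genes, tested or not, was 7.97 to 8.52 in mutant finasteride and 7.28 to 7.40 in mutant vehicle. The defining markers Ppbp and Gp9 averaged under 10 out of log2 in every group.

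Scaling moved all genes by more than 0.1 log2 units in some comparisons. Centring each library on its median moved the median change over all genes to -0.14 for finasteride in mutants, -0.11 for mutants against wild type on finasteride and -0.21 for the interaction. The share of calls that were higher was 54.1% for finasteride in mutants as deposited, 41.9% after quantile normalization and 39.4% after median centring. It was 53.3%, 42.3% and 42.6% for mutants against wild type on finasteride, 53.2%, 40.8% and 40.3% for the interaction, 44.9%, 53.7% and 55.5% for mutants against wild type on vehicle, and 45.0%, 57.1% and 54.9% for finasteride in wild type, in the same order of scalings. The members called for finasteride in mutants and for mutants against wild type on finasteride passed in the same direction under both scalings. Calls lost under a scaling were those of Cldn5 (quantile) and Cdh5 (both) for finasteride in wild type, and those of Kdr (quantile) and Eng (median centring) for the interaction.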

How the data were processed

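Poly-A selected RNA of 16 prostate samples was sequenced on an Illumina HiSeq2000, per the labels' protocols. The submitters' processing notes name CASAVA 1.8.2, TopHat, Cufflinks, DESeq, DESeq2 and mm9; which of these made the table is not given in the sources used here. The deposited table holds 1 normalized log2 value per gene and sample. The base was inferred, and values may be shrunken at low levels, which would understate fold changes there. Depth is unknown, so no counting interval is given.

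Groups came from the labels, and libraries were numbered in accession order. A model of the 4 group means was fitted with limma 3.58.1 in R 4.3.3, with a variance trend, to the 16895 genes whose mean out of log2 was at least 10. The Benjamini-Hochberg method was applied over those genes, with a threshold of 0.05. The model was tested on simulated data. Alternatives were no filter or a minimum of 50, a pseudocount of 8, quantile normalization, median centring, no variance trend, 2 groups only, each library left out, and 11 libraries. The seminal vesicle covariate was added after the data were seen. A library was called mixture-like when a mixture of a pair of its group left a residual SD under 0.1. Both weights had to be over 0.2, and the genes used had log2 values of at least 8.

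The members, lists and tests were chosen with earlier results of these data known. Named genes were the members, up to 4 genes with the lowest p of each vascular list in a comparison, and the 8 genes most like the members by Pearson's r, each also given in other comparisons. Rgs5, Svs2 and Svs4 lie outside that rule and were chosen after their values were seen. Of 193 listed genes 187 matched by symbol and 4 by synonym. Promoters came from RefSeq tables on GRCm38.p6. Values of the mutated gene and of 1 gene with a pattern like that of Emcn are not reported here.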

Additional observations from a re-analysis of the deposited data

Results flagged for a closer look

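In 8 members the finasteride effect differed between mutants and wild type by limma's interaction term. The difference was 1.19 for Pecam1, 2.11 for Cldn5, 1.06 for Cdh5, 0.73 for Kdr, 1.62 for Tek, 1.15 for Tie1, 0.53 for Eng and 1.37 for Vwf, in log2 units. In all of them the effect was more positive in mutants. Such a difference was common, being higher for 30.2% of all tested genes and lower for 26.6%. Over 11 libraries the difference passed for Pecam1, Cldn5, Cdh5, Tek and Tie1, where 29.4% of all tested genes passed. Of the 20 member groups of 5 libraries, 0 held a library past Dixon's 95% limit, where chance would give about 1 in 20.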

How the results depend on the processing

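Depth is unknown and groups hold 3 or 5 libraries, which sets the smallest difference that passes. Of 1740 refits of 70 member results, 1658 kept direction and side of the threshold, 34 lost a call, 25 gained one and 23 changed sign, all in members not called at first. No paired analysis was possible because the labels give no replicate numbers shared between groups.

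Over 11 libraries the count of members higher was 0 for mutants against wild type on vehicle, 5 for the interaction and 3 for treated mutants against untreated wild type, and the count of members lower was 1 for mutants against wild type on vehicle and 1 for finasteride in wild type. With only the groups compared, 5 members were lower in mutants on vehicle, Kdr gained a call for finasteride in mutants and Cdh5 lost one for finasteride in wild type. Finasteride in wild type gave 2 members higher after quantile normalization or median centring, and 0 lower with the seminal vesicle covariate. Leaving out 1 library gave 0 to 1 members higher in mutants on vehicle, 1 to 2 higher and 1 to 6 lower for finasteride in wild type, 0 to 1 lower for treated mutants against untreated wild type, and 0 to 1 lower for treated wild type against untreated mutants. Shares of all genes called were recorded only for the main fit and the fit over 11 libraries. The other counts therefore show only how calls of the members moved.

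These members changed sign, and the cause was not tested. In mutants against wild type on vehicle, Kdr was -0.00426 over 11 libraries and -0.0571 to 0.0691 with 1 library left out. Eng was 0.0599 after median centring, 0.0213 with the covariate and -0.127 to 0.0807 with 1 library left out. For finasteride in wild type, Tie1 was 0.161 after quantile normalization, 0.0181 after median centring, 0.0324 over 11 libraries and -0.146 to 0.0300 with 1 left out, and Vwf -0.0992 to 0.121 with 1 left out. For the interaction, Flt1 was -0.0300 after quantile normalization, and Emcn was 0.293 with the covariate and -0.522 to 0.145 with 1 left out. For treated mutants against untreated wild type, Emcn was -0.637 to 0.0295 with 1 left out. For treated wild type against untreated mutants, Pecam1 was 0.00448 over 11 libraries and -0.0846 to 0.0144 with 1 left out.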
